A study of Mus musculus with 61 samples.

Results

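Potassium channel genes were described here as all mouse genes whose symbol begins with Kcn, 98 of the 34410 genes with an annotated transcription start site (TSS), of which 94 code for proteins and 4 are noncoding transcripts. The members were followed by ChIP-seq in mouse brain, through H3K27ac, the histone acetylation found at promoters and enhancers in use, and through peaks of 3 bound proteins, namely SALL1, SMAD4 and p300. EKO mice, homozygous for a deleted enhancer that serves Sall1 in microglia, were set against wild-type (WT) mice, both on the C57/Bl6 background. The deletion is present in all cells of the EKO animals, so the NeuN and Olig2 nuclei of these mice carry it too. H3K27ac was measured in sorted microglia (CD11b+, CD45low, CX3CR1+), with 2 EKO and 2 WT libraries. It was also measured in NeuN nuclei (neuronal), Olig2 nuclei (oligodendrocyte lineage) and PU1 nuclei (microglial), with 2 libraries per genotype and sort. SALL1 peaks came from EKO, PWK, Spret and WT microglia, the strains PWK and Spret being derived from wild mice. Peaks of SMAD4 came from libraries titled as a conditional SMAD4 deletion but described as EKO, called here the libraries labelled mutant, and from WT microglia. Peaks of p300 came from 3 WT libraries, 1 labelled microglia and the others PU1 nuclei. Of the 61 samples of the series, 30 were inputs and were not used.

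Potassium channels let potassium ions leave or enter the cell and so set the resting potential and the shape of electrical signals. Voltage-gated channels open on depolarisation, inward rectifiers and 2-pore channels hold the potential near rest, and a further class opens with calcium or sodium in the cytosol. Neurons use a wide repertoire of these channels, astrocytes and oligodendrocytes clear potassium through inward rectifiers, and microglia are known for a small set that includes Kcnk13, Kcnk6, Kcna3, Kcnn4 and Kcnj2.

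The microglia libraries held 9963454 and 13392913 tags in EKO and 24357795 and 10047696 tags in WT. EKO library 1 stood apart, its tested regions having a log2 median of 6.41, while EKO library 2 had 4.95 and the WT libraries 5.57 and 5.20, so levels were quantile normalised before the test. Called regions numbered 64901 to 74196 for NeuN libraries, 35802 to 44206 for Olig2 libraries and 25990 to 36057 for PU1 libraries, apart from the first PU1 WT library with only 11149, which held 8.04% of its tags. How deeply the nuclei were sequenced is unknown. Marker promoters of the sorts mostly followed their labels. Mbp, an oligodendrocyte lineage marker, went against its label at the TSS scored, with 119 to 172 tags in NeuN nuclei. That TSS is the outermost start of its curated transcripts, and other starts of Mbp were not scored. All 6 neuronal markers were marked in NeuN nuclei and at 0 in PU1 nuclei, 6 of 7 oligodendrocyte lineage markers were marked in Olig2 nuclei with Mbp at 0, and the 7 microglial markers were marked in PU1 nuclei apart from Sall1, which was at 0 in both EKO libraries. Tissue of mixed cells was sorted before sequencing, and fewer cells of a type and less mark per cell cannot be told apart in such libraries.

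In microglia, H3K27ac near potassium channel genes changed in both directions with the enhancer deletion. Regions nearest to Kcnma1, which encodes the pore of the large-conductance calcium-activated channel, and Kcnk12, a 2-pore channel, lost the mark, and the promoter of Kcna3, a voltage-gated channel of immune cells, gained it. The microglia table gave 474 Kcn regions of 1000 bp among 133129, each assigned to the gene with the nearest TSS, for 79 of the 98 genes. Of these, 113 regions of 27 genes had a mean above 16 normalised tags and were tested, among 55285 tested regions in all, and 361 were too low. With limma on quantile-normalised log2(tags + 1), 18 Kcn regions (15.9%) lost H3K27ac in EKO, beside 7.56% of all tested regions. In the other direction 15 (13.3%) gained it, beside 8.68% of all. A call required more than a 2-fold change and p under 0.05 after Benjamini-Hochberg adjustment. The median log2 change, EKO minus WT, was −0.25 over the Kcn regions and −0.03 over all tested regions. Neighbouring windows can overlap and share tags, so the losing regions stood for 13 separate loci of 9 genes and the gaining regions for 8 loci of 7 genes. No gene had called regions in both directions.

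These counts were made after normalisation and with all 4 libraries. On the values as deposited, where the 2 EKO libraries lay far apart in level and few regions of any gene passed, 0 Kcn regions were called losing (beside 0.128% of all) and 1 gaining (beside 0.814%), with 3 and 10 at an unadjusted p below 0.05 and medians of 0.20 for Kcn and 0.28 for all regions. Leaving out EKO library 1, WT library 1 or WT library 2 left 0 losing regions, and leaving out EKO library 2 left 6. The gaining count was 0 without EKO library 1 or WT library 1, 7 without EKO library 2 and 5 without WT library 2. As deposited, both EKO libraries lay below both WT libraries in 13 Kcn regions (11.5%, beside 6.12% of all) and above both in 26 (23.0%, beside 17.8% of all). Of the called regions, 10 of the 18 losing and 15 of the 15 gaining regions had groups that did not overlap.

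**Figure D1:**
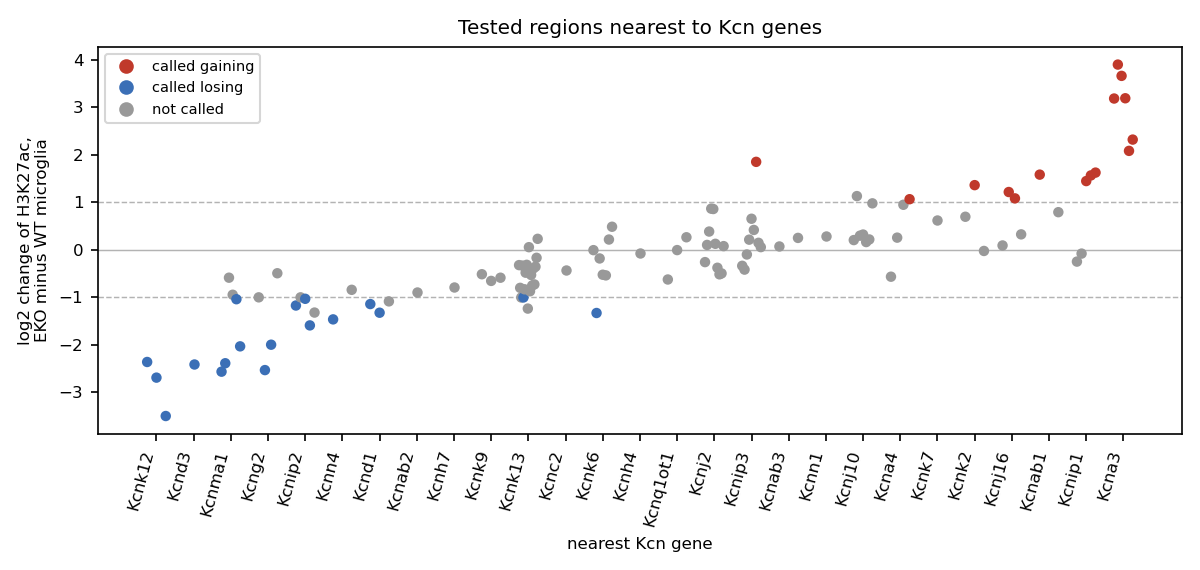
Log2 change of H3K27ac (EKO minus WT microglia, quantile normalised, 2 libraries each) for each of the 113 tested regions, by nearest Kcn gene, genes ordered by their median; dashed lines mark a fold of 2. Called losing regions cluster at Kcnk12 and Kcnma1, and all 6 tested Kcna3 regions are called gaining, up to 3.90.

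The calls were split in different ways over the channel classes, and the difference between classes was not tested. Over all tested regions 7.56% lost and 8.68% gained the mark. Windows of a single gene made up much of some class counts. Kcna3 gave 6 of the 7 voltage-gated gains and Kcnj16 the 2 inward rectifier gains. Kcnma1 gave 4 of the 5 calcium- or sodium-activated losses, and Kcnk12 gave 3 of the 5 2-pore losses. Calcium- or sodium-activated channels had 9 tested regions, of which 5 lost the mark and 0 gained it, with 0 gaining at an unadjusted p below 0.05 and 0 by edgeR or DESeq2. Inward rectifiers had 21 tested regions, of which 2 gained the mark and 0 lost it, again with 0 losing at an unadjusted p below 0.05 and by both other tools. Of 35 regions of 2-pore channels, 5 lost and 1 gained the mark, and of 21 regions of voltage-gated channels 5 lost and 7 gained it. Accessory subunits, which modify the pore-forming proteins, had 3 losing and 5 gaining regions of 24. The 3 tested regions of the noncoding transcript Kcnq1ot1 held no call in any of the 3 tools, with 0 at an unadjusted p below 0.05. By annotation, 12 of 65 intronic regions lost and 5 gained the mark. Of 13 regions at a promoter, 4 gained and 0 lost it, with 2 losing at an unadjusted p below 0.05 and 0 losing by edgeR or DESeq2.

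The deepest loss lay at Kcnk12, whose protein stays mostly silent when expressed alone. All 3 of its tested regions were called losing. The region chr17:87796678-87797678 (mm10, as are all coordinates), in exon 1 and centred 816 bp after the TSS, had 6.02 and 1.49 normalised tags in EKO libraries 1 and 2, against 35.3 and 21.9 in WT libraries 1 and 2. Both EKO libraries were far below both WT libraries (log2 change −3.50, SE 0.73, adjusted p = 0.00143 by limma). The overlapping regions downstream of it in the intron changed by −2.69 and −2.36.

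Kcnma1 had 4 losing regions of 6 tested, all in its first intron. At chr14:23822621-23823621, 181084 bp into the gene, EKO libraries had 31.1 and 12.7 tags and WT libraries 87.0 and 79.6 tags, with no overlap between the groups (log2 change −2.39, SE 0.30, adjusted p = 8.50e-06). The window overlapping it, chr14:23822272-23823272, had 37.1 and 5.97 tags in EKO against 79.2 and 59.7 in WT (log2 change −2.56). Another intronic site, chr14:23839348-23840348, changed by −2.03 with 68.3 and 12.7 tags in EKO and 127 and 77.6 in WT. The spread within EKO was wide at these sites, and EKO library 1 was the higher of the pair at each of them.

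Kcnd3, a pore-forming subunit of A-type currents, had a single tested region, chr3:105566259-105567259 in its intron 2. It had 15.1 and 6.72 tags in EKO and 43.5 and 31.9 in WT (log2 change −2.40, SE 0.46, adjusted p = 0.000655). Kcnn4, the intermediate-conductance calcium-activated channel of immune cells, had 19.1 and 25.4 tags in EKO and 47.6 and 45.8 in WT at chr7:24373206-24374206, in intron 1 (log2 change −1.46, SE 0.47, adjusted p = 0.0264). Both groups were separate at each of these genes. Without EKO library 1 the Kcnn4 change was −0.44, and its call was lost with DESeq2 (adjusted p = 0.174) and with no minimum (0.194). The silent voltage-gated subunit Kcng2 lost the mark in an intergenic region at −28002 bp from its TSS, with 16.1 and 2.24 tags in EKO and 31.6 and 18.9 in WT (log2 change −2.53, SE 0.65, adjusted p = 0.0074), a call lost with no minimum (0.0557).

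Some assignments follow the nearest TSS only. The 3 losing regions given to Kcnip2, a calcium-binding partner of A-type channels, lie in introns of Armh3, and the 2 losing regions given to Kcnd1, another A-type channel, lie in exons of Gripap1. At the largest separated Kcnip2 region, chr19:45843123-45844123, EKO libraries had 42.2 and 20.9 tags and WT libraries 49.3 and 48.8 (log2 change −1.03, SE 0.32, adjusted p = 0.0214). This call was lost with DESeq2 (adjusted p = 0.119), a pseudocount of 8 (log2 change −0.86) and no minimum (adjusted p = 0.0906). The promoter of Kcnd1 itself had 25.1 and 10.5 tags in EKO and 31.2 and 20.9 in WT, which did not pass (log2 change −1.08, adjusted p = 0.0747). Some marker regions lost the mark too. Of tested regions of microglial markers 35 of 149 lost it, at 5 genes, and of oligodendrocyte lineage markers 8 of 17, at 2 genes. Among astrocyte markers 14 of 19 lost it, at 1 gene, and among endothelial markers 3 of 10, at 2 genes. Of the endothelial regions 2 gained the mark, at 1 gene, and 0 microglial, oligodendrocyte lineage or astrocyte regions did. The 7 microglial TSS regions summed to 1840 and 538 tags in EKO and 1520 and 1020 in WT, so that the groups overlapped. The 4 TSS regions listed for the 6 astrocyte markers summed to 27.1 and 8.22 tags in EKO and 47.6 and 41.8 in WT. The 2 TSS regions of the 3 endothelial markers summed to 19.1 and 11.2 in EKO and 45.2 and 32.8 in WT. The 5 TSS regions of the 7 oligodendrocyte lineage markers summed to 29.1 and 9.71 in EKO and 13.6 and 18.9 in WT, so that the groups overlapped. Their part in the losses was not tested. As with the losses, the 3 gaining regions given to Kcnip1 lie in an intron of the noncoding gene 4930469K13Rik.

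SALL1 was bound at or beside several of the regions above. The bases at 6 peaks in Kcn regions are shown because they carry the SALL1 or SMAD4 binding seen there. For the losing regions of Kcnd3, Kcnn4 and Kcnip2 they are 200 bases centred on the WT SALL1 peak. The same holds for the Kcnma1 and Kcnk9 introns, whose 1000 bp regions held SALL1, SMAD4 and p300 peaks. For the gaining Kcna3 promoter the 200 bases are centred on the SMAD4 peak of the libraries labelled mutant. They are mm10 bases of the plus strand, 5′ to 3′, read from the RefSeq copy of that build. Capitals mark matches on either strand to GAGGAAGT (PU.1), CAGAC (SMAD), ATATT (AT-rich) or TGANTCA (AP-1). Only exact matches are in capitals, so other sequences that these factors may bind stay in lower case.
Kcnd3 (chr3:105566789-105566988): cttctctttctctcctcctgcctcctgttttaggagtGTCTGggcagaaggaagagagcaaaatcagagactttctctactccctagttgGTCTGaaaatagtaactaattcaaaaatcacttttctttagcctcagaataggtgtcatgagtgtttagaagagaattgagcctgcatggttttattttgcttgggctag
Kcnn4 (chr7:24373550-24373749): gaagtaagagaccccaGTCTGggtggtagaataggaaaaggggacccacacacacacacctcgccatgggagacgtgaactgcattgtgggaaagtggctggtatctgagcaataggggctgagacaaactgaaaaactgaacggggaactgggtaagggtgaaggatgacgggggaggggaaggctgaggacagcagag
Kcnip2 (chr19:45843448-45843647): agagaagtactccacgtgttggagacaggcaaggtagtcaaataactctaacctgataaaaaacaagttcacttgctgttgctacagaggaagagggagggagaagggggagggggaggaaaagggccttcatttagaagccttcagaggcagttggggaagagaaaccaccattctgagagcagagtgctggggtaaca
Kcnma1 (chr14:23824494-23824693): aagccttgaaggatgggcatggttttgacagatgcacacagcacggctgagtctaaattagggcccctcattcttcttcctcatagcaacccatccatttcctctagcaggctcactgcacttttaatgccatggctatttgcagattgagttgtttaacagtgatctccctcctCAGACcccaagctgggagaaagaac
Kcnk9 (chr15:72528624-72528823): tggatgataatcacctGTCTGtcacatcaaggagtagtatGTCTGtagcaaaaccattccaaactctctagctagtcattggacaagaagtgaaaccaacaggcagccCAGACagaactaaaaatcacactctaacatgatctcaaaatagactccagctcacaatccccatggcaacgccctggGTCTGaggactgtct
Kcna3 (chr3:107034947-107035146): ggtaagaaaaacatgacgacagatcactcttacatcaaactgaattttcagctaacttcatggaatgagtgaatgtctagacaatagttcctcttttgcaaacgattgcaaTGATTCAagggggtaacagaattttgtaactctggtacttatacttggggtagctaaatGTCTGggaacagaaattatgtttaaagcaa
CAGAC or its reverse was found in 5 of the 6, with 4 copies in Kcnk9 and none in Kcnip2, beside 41.6% of the 132879 central windows of the same length over the microglia table. TGANTCA was found in 1, Kcna3 (7.64% of all windows), and GAGGAAGT (9.34%) and ATATT (13.5%) in none. For the AT-rich letters only ATATT and its reverse were searched, so other AT-rich runs were not counted. A match is a run of letters and no measure of binding.

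In all, 41 of 474 Kcn regions (8.65%) overlapped a WT SALL1 peak by at least 1 bp, beside 13.7% of all regions. They held 35 distinct peaks near 17 genes. SALL1 peaks lay on 0 Kcn regions in EKO, whose list held 7 peaks in the whole genome, and on 10 each in PWK and Spret (2.11% each, beside 3.42% of all regions in PWK and 2.2% in Spret). SMAD4 lay on 10 Kcn regions in the libraries labelled mutant (2.11%, beside 3.03% of all) and on 22 in WT (4.64%, beside 4.89%), and p300 lay on 32 (6.75%, beside 9.64%). Each group had 1 list of reproducible peaks, so these shares carry no spread between libraries and no test. Among the 18 losing regions, 6 held a WT SALL1 peak (33.3%, beside 28.1% of all losing regions) and 9 a WT SMAD4 peak (50%, beside 13.2%), which were 7 distinct peaks at 7 genes. Among the 15 gaining regions, 1 held a WT SALL1 peak (6.67%, beside 23.1% of all gaining regions) and 0 a WT SMAD4 peak (beside 2.9%). A SMAD4 peak of the libraries labelled mutant lay on 4 of them (26.7%, beside 7.5%). These 4 regions held 2 distinct peaks, at Kcna3 and Kcnip1.

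Regions that held peaks of SALL1, SMAD4 and p300 in WT, each by an overlap of at least 1 bp, numbered 6 (1.27%, beside 1.86% of all). The 5 with the highest WT tags lay in introns of Kcnk9, a 2-pore channel of the TASK group, of Kcnma1 and of Kcnip3, a calcium sensor that binds A-type channels, and none of them was called. The higher of the overlapping pair at Kcnk9, chr15:72528305-72529305, had 371 and 96.3 tags in EKO and 328 and 176 in WT, so that the groups overlapped (log2 change −0.59). At Kcnma1, chr14:23824636-23825636 had 115 and 46.3 tags in EKO and 123 and 115 in WT. Its log2 change of −0.94 had an adjusted p of 0.00387 but stayed under a fold of 2, between called regions on either side. At Kcnip3, chr2:127505727-127506727 had 52.2 and 28.4 tags in EKO against 32.8 in each WT library (log2 change −0.10, SE 0.33).

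**Figure D2:**
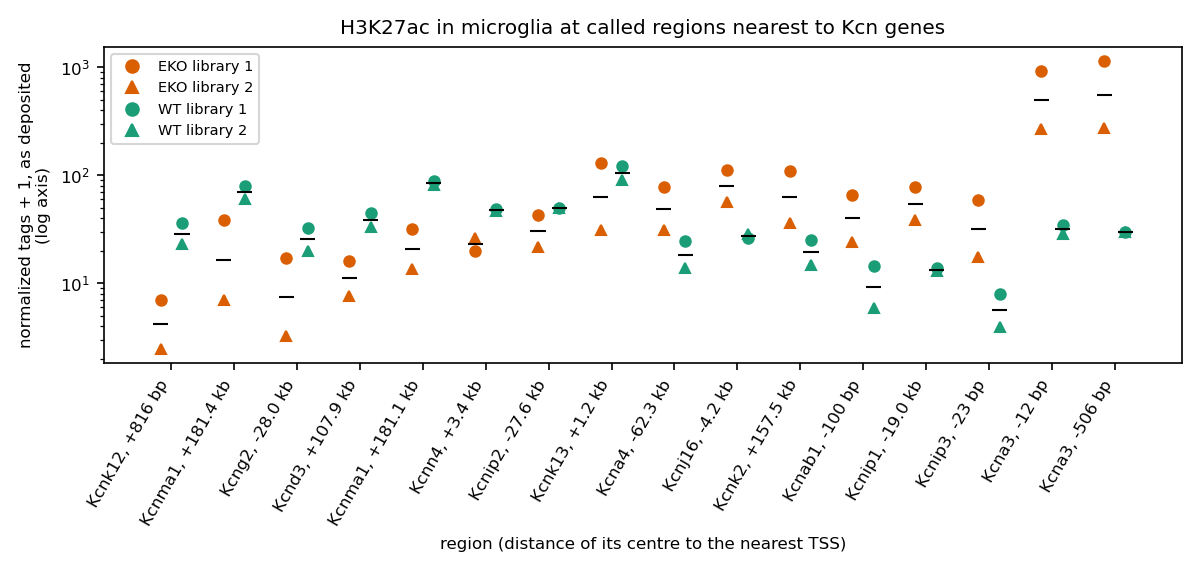
Normalised H3K27ac tags plus 1 (log axis, as deposited) in each EKO and WT microglia library at the called regions named in the text, ordered by log2 change, with the distance of each region's centre to the nearest TSS; black bars are geometric means of 2 libraries. At Kcnk13 the EKO library 1 value (128) lies above both WT values, and at the Kcna3 promoter regions the EKO values (264 to 1127) lie far above the WT values (27.9 to 33.7).

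Kcna3 showed the strongest gain among the Kcn regions. All 6 of its tested regions, which tile the promoter and the single exon with overlap, were called gaining, with log2 changes of 2.08 to 3.90. The window centred at −506 bp from the TSS, chr3:107035156-107036156, had 1127 and 271 tags in EKO, against 28.7 and 28.9 in WT. Even the lower EKO library lay far above the WT pair (log2 change 3.90, SE 0.20, adjusted p = 7.84e-11), and this was the 1 Kcn region that was also called on the values as deposited (adjusted p = 0.0337). The window centred at −12 bp had 914 and 264 tags in EKO and 33.7 and 27.9 in WT (log2 change 3.66, SE 0.19). No WT SALL1, WT SMAD4 or p300 peak lay in its TSS window of 2 kb on either side, while 1 SMAD4 peak of the libraries labelled mutant did. Such peaks were uncommon over the TSS windows of all genes. There 6.78% held WT SALL1, 4.06% WT SMAD4, 9.18% p300 and 2.72% SMAD4 of the libraries labelled mutant.

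Sorted PU1 nuclei gave Kcna3 a difference in the same direction. Its promoter had 318 and 246 normalised tags in called regions in PU1 EKO nuclei, against 0 and 16.5 in PU1 WT nuclei. The PU1 groups did not overlap (log2 change 6.07 on the log2(tags + 1) scale, SE 1.16, adjusted p = 0.0332). In NeuN nuclei it had 243 and 233 tags in EKO and 203 and 237 in WT, and in Olig2 nuclei 31.3 and 18.6 in EKO and 28.2 and 21.6 in WT. Genotypes overlapped in both sorts, but the difference of the genotype effects did not pass, with adjusted p = 0.173 for PU1 against Olig2 and 0.176 for PU1 against NeuN. The PU1 call was lost with the replicate number as a block (adjusted p = 0.0629) and without any 1 of the 10 other libraries (0.0748 to 0.202), and it held without either PU1 WT library. The change itself was 4.01 without PU1 WT library 1 and 8.13 without PU1 WT library 2.

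Some markers of border macrophages moved with Kcna3. In PU1 nuclei the summed promoter tags of Mrc1, Pf4, Lyve1 and Cd163 were 716 to 898 in EKO and 0 to 61.7 in WT, with Cd163 at 0 in both. Of these 4 genes, 2 were marked in both PU1 EKO libraries. In the microglia table these 4 genes had 2 TSS regions, which summed to 165 and 79.1 tags in EKO and 25.9 and 25.9 in WT. Of the 20 tested regions of these genes, 11, at 2 genes, gained the mark. Monocyte markers summed to 0 in both PU1 EKO libraries and to 0 to 120 in PU1 WT libraries, and in microglia 2 of their 8 tested regions lost and 1 gained the mark. Their part in the Kcna3 result was not tested.

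**Figure D3:**
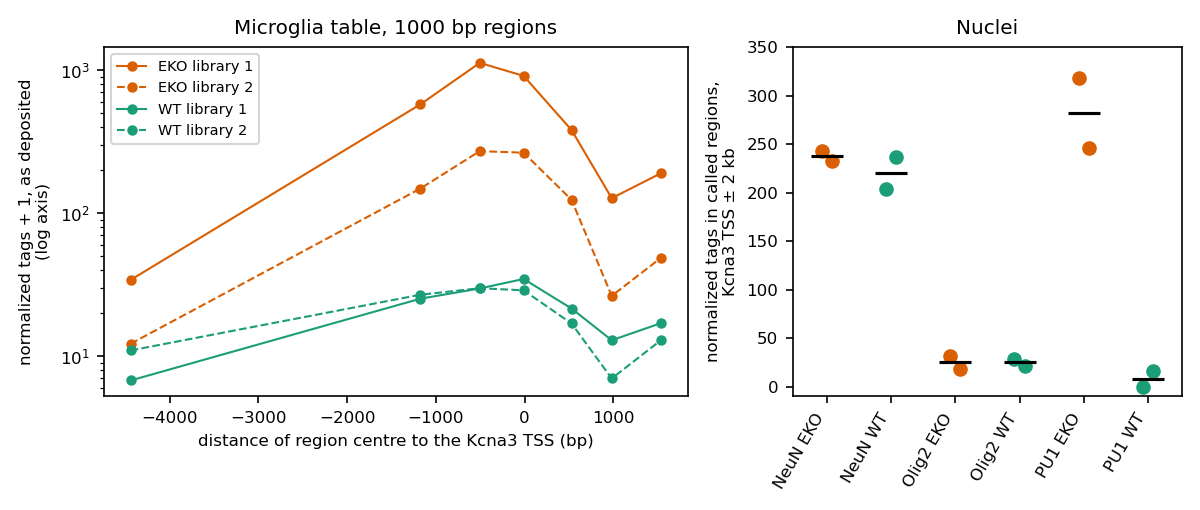
Left, normalised H3K27ac tags plus 1 (log axis, as deposited) in 1000 bp microglia regions by distance from the Kcna3 TSS, 1 line per library. Right, normalised tags in called regions within 2 kb of the Kcna3 TSS in each nuclei library, EKO left of WT for each sort, with bars at the mean of 2 libraries. PU1 EKO (318 and 246) stands above PU1 WT (0 and 16.5), while NeuN and Olig2 values overlap between genotypes.

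Of the other gaining regions, 2 more lay on promoters. Kcnip3 had 58.2 and 16.4 tags in EKO and 6.98 and 2.99 in WT at its TSS (log2 change 1.85, SE 0.55, adjusted p = 0.0169). Kcnab1, a cytoplasmic beta subunit of voltage-gated channels, had 65.2 and 23.2 tags in EKO and 13.6 and 4.98 in WT, at −100 bp from an internal start (log2 change 1.58, SE 0.45, adjusted p = 0.0141). Both were low in WT microglia and separate between the genotypes there. At Kcnip3 the PU1 nuclei were scored over a wider window, 2 kb on either side of an upstream start, so the levels are not like for like. That window had 695 and 560 tags in PU1 EKO and 89.9 and 561 in PU1 WT nuclei. Those groups overlapped, and the difference did not pass (log2 change 1.47, adjusted p = 0.581 by limma). Away from promoters, the region near Kcnip1 at chr11:34011669-34012669 had 76.3 and 37.3 tags in EKO and 12.7 and 11.9 in WT (log2 change 1.63, SE 0.36). An intron of Kcnj16, an inward rectifier subunit that partners with Kcnj10, had 110.4 and 55.3 tags in EKO and 25.5 and 27.9 in WT (log2 change 1.22, SE 0.30). Intergenic regions gave the remaining gains, 157461 bp from the TSS of Kcnk2, a mechanosensitive 2-pore channel (log2 change 1.36), and −62261 bp from that of Kcna4, an A-type channel (1.07). The Kcna4 call was lost with DESeq2 (adjusted p = 0.115), a pseudocount of 8 (log2 change 0.86), no minimum (adjusted p = 0.0997) and a minimum of 32 tags (0.0707), and the Kcnab1 call with no minimum (0.0609).

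The channels best known from microglia did not move as a group. Kcnk13, which carries much of the resting potassium conductance of microglia, had 18 tested regions and 1 call, at chr12:99965242-99966242 in a 5′ UTR. This region had 128 and 29.9 tags in EKO and 121 and 88.6 in WT, so that the groups overlapped (log2 change −1.0, SE 0.24, adjusted p = 0.00428), and with edgeR, DESeq2 or a pseudocount of 8 it fell just short of a fold of 2. Kcnk6, a 2-pore channel of endolysosomes and the cell surface of macrophages, had 1 losing region of 7, in an intron (61.2 and 16.4 tags in EKO, 101 and 43.8 in WT, log2 change −1.33). Its promoter had 249 and 90.4 tags in EKO and 149 and 81.6 in WT and was not called (log2 change 0.22, SE 0.19, adjusted p = 0.448).

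None of the 10 tested regions of Kcnj2, the classical strong inward rectifier, was called by limma, with 2 at an unadjusted p below 0.05. Its TSS region had 52.2 and 27.6 tags in EKO and 25.9 and 48.8 in WT (log2 change −0.26), and the sign turned on the values as deposited (0.09). Kcnj10, a glial inward rectifier, had 41.2 and 22.4 tags in EKO and 8.21 and 9.95 in WT at its promoter, which were separate but did not pass (log2 change 1.13, SE 0.47, adjusted p = 0.0849, and 0.0311 by edgeR). Kcnab2, a beta subunit, had 127 and 23.9 tags in EKO and 90.7 and 76.6 in WT at its promoter, under a fold of 2 (log2 change −0.88, adjusted p = 0.0275). Both regions of Kcnn3, a small-conductance channel, were too low to test.

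The nuclei asked in which brain cells the potassium channel promoters carry the mark, and the answer was mostly neurons. Windows of 2 kb on either side of each TSS, the same length for every gene, were scored by the normalised tags of the called regions in them, and a promoter with no called region was listed at 0, which is below the caller's threshold and not absence. Each gene was scored at 1 TSS, the outermost start of its curated transcripts, so its other promoters do not count here. Kcnab1, for example, was at 0 at this start, which is not the internal start of its gaining region above. Of the 98 Kcn promoters so defined, 76 were marked in at least 1 of 12 libraries and 22 in none. Per library, 65.3 to 69.4% of Kcn promoters were marked in NeuN nuclei, 21.4 to 33.7% in Olig2 nuclei and 7.14 to 14.3% in PU1 nuclei. Over all 34410 genes the shares were 44.0 to 46.8% in NeuN, 35.2 to 36.9% in Olig2 and 14.5 to 32.8% in PU1 nuclei. So the Kcn share lay above that of all genes in every NeuN library and below it in every Olig2 and PU1 library.

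**Figure D4:**
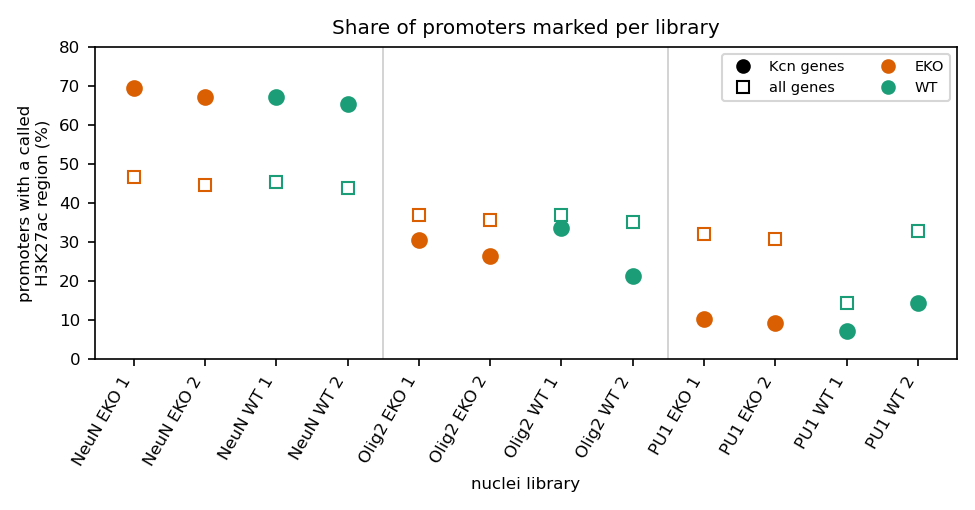
Share of promoters with a called H3K27ac region in each nuclei library, for the 98 Kcn genes (filled circles) and all 34410 genes (open squares), EKO in orange and WT in green. Kcn shares are 65.3 to 69.4% in NeuN, 21.4 to 33.7% in Olig2 and 7.14 to 14.3% in PU1 nuclei.

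With limma, 73 Kcn promoters marked in at least 2 libraries were tested, and contrasts between sorts averaged both genotypes. Of these, 60 (82.2%) had more H3K27ac in NeuN than PU1 nuclei, beside 41.6% of all 19482 tested promoters. A further 3 had more in PU1, beside 10.5%. Kcna3 was counted among the 60, with 203 to 243 tags in NeuN, 318 and 246 in PU1 EKO and 0 and 16.5 in PU1 WT nuclei. Against Olig2 nuclei, 56 (76.7%) had more in NeuN, beside 28.9%, and 6 had more in Olig2, beside 10.9%. Between the glial sorts, 22 (30.1%) had more in Olig2 than PU1 nuclei, beside 23.9%, and 4 had more in PU1, beside 11.5%. The median difference on the log2(tags + 1) scale was 7.28 for NeuN minus PU1 (1.95 over all promoters) and 5.61 for NeuN minus Olig2 (0.67 over all), which values at 0 make a description and no bound. Libraries listed at 0 add no spread, so p-values of promoters at 0 in a whole sort are small for that reason too. Without PU1 WT library 1, the count higher in PU1 was 7 against NeuN and 7 against Olig2.

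The share marked in NeuN nuclei, at the scored TSS of each gene only, varied by class. Of all genes, 46.9% were marked in at least 2 NeuN libraries, beside 68.4% of Kcn genes. Above the share of all genes were 35 of 40 voltage-gated genes (87.5%), 8 of 12 calcium- or sodium-activated genes (66.7%), 8 of 14 2-pore genes (57.1%) and 4 of 4 noncoding transcripts. The 7 of 15 inward rectifiers (46.7%) were near it, and the 5 of 13 accessory genes (38.5%) below it. Promoters marked in NeuN nuclei alone numbered 38 (38.8%, beside 11.5% of all genes), and those marked in NeuN and Olig2 nuclei alone 21 (21.4%, beside 8.85%). Those marked in all 3 sorts numbered 5 (5.10%, beside 24.3% of all genes). The 63 promoters marked in all 4 NeuN libraries had medians of 11.6 tags (Kcns3) to 415 tags (Kcnma1) there, with a middle value of 187.

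Among the promoters with the widest distance to both other sorts were Kcnh3, Kcnj4, Kcnf1, Kcnv1 and Kcns2, all listed at 0 in every Olig2 and PU1 library. Kcnh3, a voltage-gated channel of the forebrain, had 365 and 346 tags in EKO and 307 and 395 in WT NeuN nuclei. Kcnj4, a neuronal inward rectifier, had 261 and 371 in EKO and 370.0 and 370.1 in WT. The silent subunits Kcnf1, Kcnv1 and Kcns2, which form channels only together with other voltage-gated subunits, ranged over 314 to 375, 231 to 376 and 230 to 336 tags. Genotypes overlapped at each of these promoters, and their adjusted p-values for NeuN over PU1 were 1.38e-08 to 2.28e-08. The windows of Kcnh3 and Kcns2 also held the TSS of another gene.

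**Figure D5:**
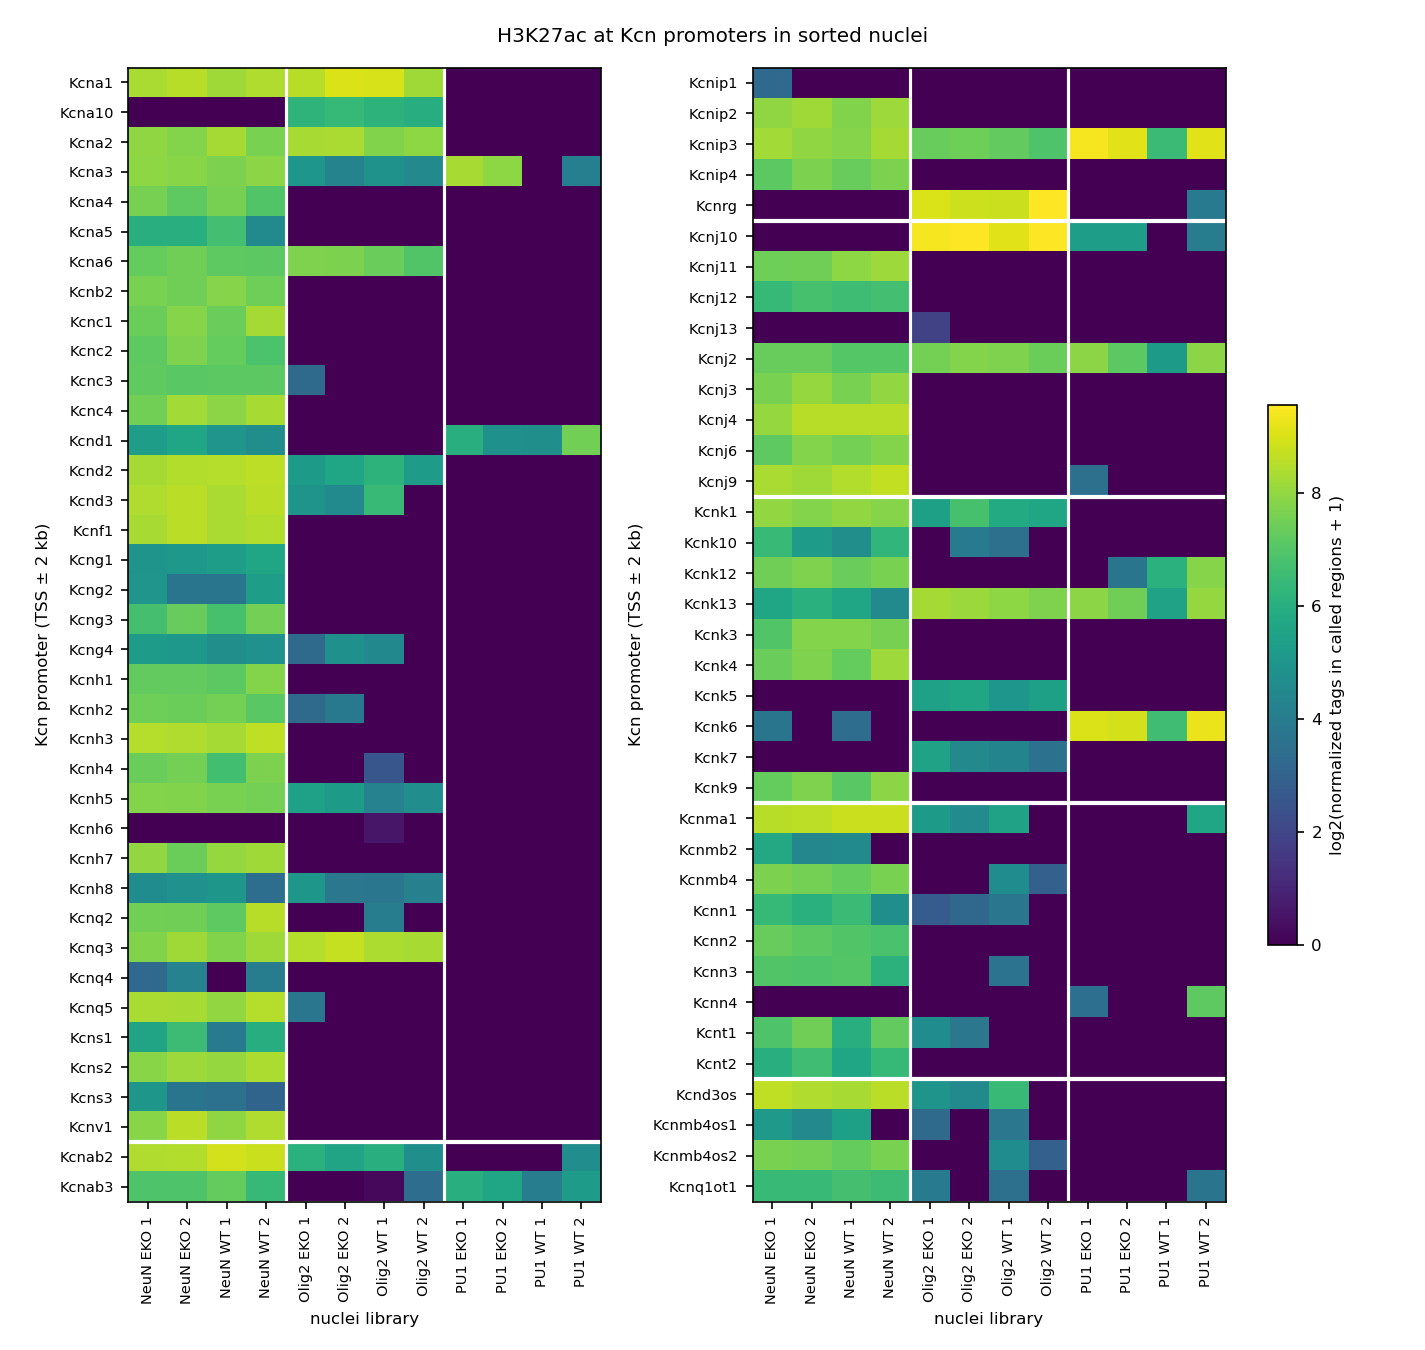
H3K27ac (log2 of normalised tags in called regions plus 1) at 75 of the 76 Kcn promoters marked in at least 1 nuclei library, rows grouped by class (voltage-gated, accessory, inward rectifier, 2-pore, calcium- or sodium-activated, noncoding; white lines) and columns by sort and genotype. Most rows are bright in the NeuN columns only, and Kcnk6 is bright in the PU1 columns.

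Olig2 nuclei had 5 Kcn promoters above both other sorts. Kcnj10, whose channel clears potassium in astrocytes and oligodendrocytes, had 694 and 753 tags in EKO and 553 and 754 in WT Olig2 nuclei, was listed at 0 in NeuN nuclei and had 0 to 40.2 tags in PU1 nuclei. Kcnrg, a regulator that interferes with the assembly of voltage-gated channels, had 512 and 457 tags in EKO and 444 and 750 in WT Olig2 nuclei and 14.2 tags in PU1 WT library 2, its 1 value outside this sort. Kcna10, Kcnk5 and Kcnk7 had medians of 72.5, 43.0 and 20.2 tags in Olig2 nuclei and were at 0 in every NeuN and PU1 library. Astrocyte markers were marked in Olig2 nuclei too, with summed tags of 178 to 326 against 2840 to 3560 for oligodendrocyte lineage markers. Their sum was not particular to this sort, with 208 to 273 in EKO and 212 to 371 in WT NeuN nuclei. Of the 6 astrocyte markers, 4 in EKO and 3 in WT were marked in both Olig2 libraries, and 1 in both NeuN libraries of each genotype. The part of astrocyte markers in these results was not tested.

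A few voltage-gated promoters had like levels in NeuN and Olig2 nuclei. Kcna1 had 292 to 370 tags in NeuN and 295 to 528 in Olig2 nuclei, and Kcnq3, a subunit of the M current, 214 to 290 in NeuN and 314 to 423 in Olig2 nuclei, so that its ranges did not overlap. Kcna2 and Kcna6, which like Kcna1 encode axonal channels, overlapped between these sorts, as did Kcna1. For the 4 genes the adjusted p-values of NeuN against Olig2 were 0.229 to 0.802, and all 4 were at 0 in every PU1 library.

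PU1 nuclei had 1 Kcn promoter above both other sorts, Kcnk6. It had 12 and 0 tags in EKO and 9.81 and 0 in WT NeuN nuclei, 0 in every Olig2 library, and 528 and 495 tags in EKO and 97.1 and 628 in WT PU1 nuclei. The lowest PU1 value, that of WT library 1, was still above all NeuN and Olig2 values (adjusted p = 0.00104 against NeuN and 0.000394 against Olig2). Its promoter window also held a SMAD4 peak in the libraries labelled mutant and in WT, and a p300 peak, without a SALL1 peak. Kcnk13 was shared, with 22.5 to 66.3 tags in NeuN, 208 to 306 in Olig2 and 44.7 to 263 in PU1 nuclei, and was higher in both glial sorts than in NeuN nuclei (adjusted p = 0.00829 for Olig2 and 0.0314 for PU1). Kcnj2 was marked in all 12 libraries, with 131 to 160 tags in NeuN, 170 to 218 in Olig2 and 35.6 to 239 in PU1 nuclei, and no pair of sorts passed (adjusted p of 0.493 to 0.861).

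Kcnn4 was marked in PU1 nuclei alone, with 10.3 and 0 tags in EKO and 0 and 146 in WT, a spread too wide for a call against either sort. Kcnd1 had 25.7 to 49.2 tags in NeuN nuclei, 0 in Olig2 nuclei and 25.9 to 183 in PU1 nuclei, and Kcnab3 had 82.8 to 156 in NeuN and 15.3 to 63.3 in PU1 nuclei. Both were higher in PU1 than in Olig2 nuclei (adjusted p = 0.000112 and 0.00169), as was Kcnk12 (0.0029). Kcnip3 was marked in every library, highest in PU1 nuclei with 695 and 560 tags in EKO and 89.9 and 561 in WT, against 122 to 307 in the other sorts, and did not pass for any pair.

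By genotype, few Kcn promoters passed the test in nuclei, which with 2 libraries per group does not show that the others did not change. Over all promoters the median EKO minus WT change in PU1 nuclei was 0.50 on the log2(tags + 1) scale. In PU1 nuclei 1 of 73 (1.37%), Kcna3, was higher in EKO, beside 2.93% of all promoters, and 0 were lower, beside 0.149%, with 1 lower at an unadjusted p below 0.05. Kcnk12 had 0 and 12.2 tags in PU1 EKO and 68.7 and 224 in PU1 WT nuclei, which were separate but did not pass (adjusted p = 0.0625). In NeuN nuclei 0 were higher (beside 0.78% of all) and 0 lower (beside 0.364%) by limma, with 0 and 1 at an unadjusted p below 0.05.

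In Olig2 nuclei 2 promoters were higher in EKO (2.74%, beside 0.375% of all) and 2 lower (2.74%, beside 0.416%). Kcnh2, whose channel repolarises the heart and many neurons, had 8.77 and 13.7 tags in EKO and 0 and 0 in WT (adjusted p = 0.00105). Kcnt1, a sodium-activated channel, had 23.8 and 12.8 in EKO and 0 and 0 in WT (adjusted p = 0.00489). Kcnmb4, the neuronal beta subunit of the Kcnma1 channel, had 0 and 0 in EKO and 24.0 and 6.70 in WT (adjusted p = 0.0137), and the noncoding Kcnmb4os2 shares its window and its values. All of these promoters were at 0 in every PU1 library and high in NeuN nuclei, with 65.0 to 203 tags. Neuronal markers summed to 0 to 22.6 tags in EKO and 5.59 to 29.2 in WT Olig2 nuclei, and their part in these calls was not tested. The calls were lost when promoters were scored by the length covered by called regions, after quantile normalisation and with a pseudocount of 8.

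Genes that handle potassium but are not Kcn channels gave a point of comparison, with 26 genes of pumps, cotransporters, HCN channels and auxiliary proteins. Of their 24 tested promoters, 18 were higher and 2 lower in NeuN than PU1 nuclei, beside 41.6% and 10.5% of all tested promoters. Against Olig2 nuclei, 12 were higher and 4 lower in NeuN, beside 28.9% and 10.9% of all. Between the glial sorts, 8 were higher and 1 lower in Olig2 than PU1 nuclei, beside 23.9% and 11.5% of all. By genotype 0 passed in any sort, beside 0.149 to 2.93% of all promoters per sort and direction. At an unadjusted p below 0.05 there was 1, in PU1 nuclei. In microglia, 54 of their regions at 13 genes were tested. Of these, 2 lost the mark (at Lrrc55 and Wnk1), beside 7.56% of all tested regions. In the other direction 10 gained it, 5 of them at the sodium pump subunit Atp1b3, beside 8.68% of all. Their median log2 change was 0.13.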

How the data were processed

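H3K27ac libraries of sorted microglia and of NeuN, Olig2 and PU1 nuclei and peak lists of SALL1, SMAD4 and p300 were used. The submitters' processing notes name Bowtie2, HOMER, DESeq2 and mm10, without versions. For the microglia, the authors deposited a signal table of tags in 1000 bp regions, scaled to 10000000 tags per library. All values came back as whole tags within 0.05 tags, which gave the depths in the report and allowed the count tests. For the nuclei, the authors deposited 1 list of regions per library with the signal as normalised tags and the fold over input, whose lowest listed value was 4. For the factors, the authors deposited 1 peak list per group with an IDR score for reproducibility between libraries.

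Regions with a mean above 16 tags were quantile normalised and tested as log2(tags + 1) with limma 3.58.1 (R 4.3.3), on all regions of the table. Promoter windows of 2 kb on either side of the TSS, marked in at least 2 of 12 libraries, were tested as log2(tags + 1) with limma in 1 fit of all sorts and genotypes. Contrasts between sorts averaged both genotypes. Each gene had 1 TSS, the outermost start of its curated transcripts, or of the gene record where it had none. Because depth is unknown for the nuclei, the smallest detectable level there is unknown. Peaks were counted on a region from an overlap of 1 bp. Alternatives were values as deposited, edgeR 4.0.16 and DESeq2 1.42.0 on recovered tags, other pseudocounts, minimums, windows and scalings, a replicate block and leaving out each library. Tests were checked on simulated data. Precision was limited by 2 libraries per group, and nothing states that these came from separate animals, so p-values measure only the spread between libraries, which may be technical. The members and gene lists were chosen with earlier results of these data known. Named were, per direction, the largest called separated region of each gene, the microglial channels Kcnk13, Kcnk6, Kcna3, Kcnn4, Kcnj2, Kcnma1, Kcnab2, Kcnn3, Kcnj10 and Kcnd1, the genes with most calls, the 5 highest regions with all 3 factors, the 6 promoters per sort furthest above both other sorts (1 of them is not reported here), and promoters called by genotype. Promoters and regions outside these rules (Kcna1, Kcna2, Kcna6, Kcnq3, Kcnab3, and Kcnn4, Kcnd1, Kcnip3, Kcnk12 and Kcnk13 in nuclei) were named after their values were seen.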

Additional observations from a re-analysis of the deposited data

Results flagged for a closer look

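At 4 promoters the interaction contrast of the genotype effects between sorts passed in limma, a test chosen after seeing the data. All 4 were at 0 in every PU1 library, so there was no PU1 effect to compare, and the contrast with PU1 nuclei only restates the Olig2 effect. At Kcnh2 the effect in Olig2 nuclei (8.77 and 13.7 tags in EKO, 0 and 0 in WT) gave an adjusted p of 0.00352 against PU1 and 0.00555 against NeuN nuclei. At Kcnt1 (23.8 and 12.8 in EKO, 0 and 0 in WT) the adjusted p was 0.0123 against PU1 and 0.0441 against NeuN nuclei. At Kcnmb4 (0 and 0 in EKO, 24.0 and 6.70 in WT) it was 0.0308 against PU1 and 0.0443 against NeuN nuclei, and at Kcnmb4os2, which shares the window, 0.0307 and 0.0451.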

How the results depend on the processing

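The 18 losing microglia regions became 0 on values as deposited, 10 with DESeq2, 8 with a minimum of 32 tags and 0 to 6 when leaving out 1 library. The 15 gaining became 1 as deposited and 0 to 7 when leaving out 1 library. With edgeR the counts were 17 and 16, of which 16 and 15 were shared. Between EKO and WT, the deviations of same-numbered libraries correlated at 0.036 in microglia, 0.0842 in NeuN, −0.000584 in Olig2 and −0.124 in PU1 nuclei. With 2 libraries per group their deviations mirror each other, so these values cannot settle whether replicate numbers pair the libraries. With the replicate block the microglia counts were 19 and 15, and the promoters changed by genotype in PU1 nuclei became 0, against 1 with crossed PU1 WT numbers. The Kcnj2 TSS change turned to 0.09 as deposited and ranged over −0.82 to 0.34 when leaving out 1 library, and the Kcnip3 intron change turned to 0.22 and ranged over −0.42 to 0.20. In nuclei, the 3 promoters higher in PU1 than NeuN became 1 at a fold over input of 8, 6 after quantile normalisation, 0 with WT libraries only and 2 to 7 when leaving out 1 library. The 22 higher in Olig2 than PU1 became 14 by covered kb and 14 by quantiles. The 4 higher in PU1 than Olig2 became 7 by quantiles and 4 to 7 when leaving out 1 library. By genotype, the 1 call in PU1 nuclei became 2 by covered kb, a 1 kb window, a fold over input of 8, quantiles or a pseudocount of 8, and 0 to 6 when leaving out 1 library. The 4 in Olig2 became 0 by covered kb, quantiles or a pseudocount of 8, and 2 to 7 when leaving out 1 library. The 0 in NeuN became 1 by covered kb and 0 to 2 when leaving out 1 library. With peaks with an enrichment score below the median of their list left out, 42 of 64 Kcn regions kept any factor, 6 kept SALL1 in PWK, 4 SALL1 in Spret, 5 SMAD4 of the libraries labelled mutant, 14 WT SMAD4 and 18 p300. Asking for 50% of a peak inside the region left 6 with SMAD4 of the libraries labelled mutant. The cause of these changes was not tested. Depth is unknown in nuclei, and 0 there means no called region.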
